A study of Mus musculus with 6 samples.

Results

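The 10 genes described here encode the Lin28 proteins, the enzymes of let-7 precursor uridylation and decay, and a set of let-7 targets, and all 10 were found among the 18312 genes of the deposited expression table. They were chosen by symbol, as rows named Lin28a, Lin28b, Zcchc11, Zcchc6, Dis3l2, Trim71, Hmga2, Igf2bp1, Igf2bp2 or Igf2bp3. The study looked for mRNAs bound by Brf1 (Zfp36l1) and Brf2 (Zfp36l2), zinc finger proteins that bind AU-rich elements and promote mRNA decay. The labels describe 6 libraries in 3 groups of 2, namely precipitates made with an antibody against Brf1 and Brf2, precipitates made with rabbit IgG, and total RNA. The cells were of the mouse embryonic stem line E14, wild type on a 129/Ola background, grown in 15% fetal bovine serum with LIF, a cytokine that keeps such cells undifferentiated, at 1000 U/ml. The precipitates were made from cytoplasmic extract. The labels do not say whether the paired libraries came from separate cultures.

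The table holds 1 profile of 22625281 counts, and nothing in it names a library. No gene could therefore be compared between precipitate, IgG and total RNA, and no level below is a measure of binding by Brf1 or Brf2. The levels are those of the profile, and whether they are levels in the whole cell is unknown. There are no replicates. Levels are FPKM, counts scaled to the effective length of the gene model and to the total count, and the intervals beside them are the bounds in the authors' table. They cover counting error only.

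Lin28 proteins bind the precursors of let-7, a microRNA family that silences growth and developmental genes in differentiating cells. A precursor bound by Lin28a is tailed with uridines by the terminal uridylyltransferases Zcchc11 (also called Tut4) and Zcchc6 (Tut7). The tailed precursor is destroyed by the exonuclease Dis3l2. Embryonic stem cells are known for high Lin28a and little mature let-7, and let-7 in turn targets the Lin28 mRNAs, so the pair forms a mutual inhibition.

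The let-7 sequences are shown because their seed, bases 2 to 8 counted from the 5′ end and printed in capitals, sets which mRNAs they can pair with. Of 12 mature mouse sequences taken from RefSeq (GRCm38.p6), 10 shared the seed of let-7a. These were let-7a, b, c, d, e, f, g, i and k and miR-98, of which 4 are printed, while let-7j and miR-202-3p had another seed, shown by let-7j.
mmu-let-7a-5p: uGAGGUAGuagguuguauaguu
mmu-let-7d-5p: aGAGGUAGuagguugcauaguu
mmu-let-7g-5p: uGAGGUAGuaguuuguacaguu
mmu-miR-98-5p: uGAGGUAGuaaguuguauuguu
mmu-let-7j: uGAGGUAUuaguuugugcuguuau

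The zinc knuckles of Lin28 are known to bind GGAG in the stretch between the arms of a let-7 precursor. GGAG was searched on the RNA strand of the 11 let-7 and miR-98 hairpins for which both arms are listed, and 8 of them (72.7%) had it between the arms. In let-7a-1, c-1, d, e, f-1, f-2, g and i it was present, and in let-7b, let-7c-2 and miR-98 these letters were not in that window. Among all 61 mouse hairpins with an equally long stretch between the arms, 23 to 36 nt, 24.6% had GGAG there, the let-7 hairpins included. One hairpin with GGAG (in capitals) and one without are shown.
Mirlet7g, chr9:106178840-106178927, plus strand: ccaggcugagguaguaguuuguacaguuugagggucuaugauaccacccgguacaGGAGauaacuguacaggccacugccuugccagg
Mirlet7b, chr15:85707319-85707403, plus strand: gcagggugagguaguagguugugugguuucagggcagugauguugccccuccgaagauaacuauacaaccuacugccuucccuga

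No symbol of the table begins with Mirlet7, so let-7 itself was not analysed here. Genes that contain a let-7 gene on the same strand did have rows. Huwe1, a ubiquitin ligase gene around Mir98 and Mirlet7f-2, had 50.9 FPKM (50.2 to 51.5), and Wdr82, a gene for a subunit of histone methyltransferase complexes around Mirlet7g, had 40.6 (39.4 to 41.7). Ncrna00085, around Mirlet7e, had 2.13 FPKM (1.59 to 2.67) from 62 counts. These are levels of the host RNA and say nothing of the microRNA.

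All 10 genes had at least 1 FPKM, the level used here as present, against 56.0% of all gene rows. Their levels ran over more than an order of magnitude, with Dis3l2 lowest at 3.51 FPKM and Lin28a highest at 186 FPKM. Together they held 54261 counts, 0.240% of the total. Their median was 18.8 FPKM, and the median over all gene rows was 1.94 FPKM. Over the gene rows with at least 1 FPKM the median was 9.66 FPKM. The lowest of them, Dis3l2, was above 56.8% of gene rows, and the highest, Lin28a, above 98.5%. The half-width of the authors' interval was 1.44% to 9.57% of the value, widest for Dis3l2, which had the fewest counts.

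**Figure D1:**
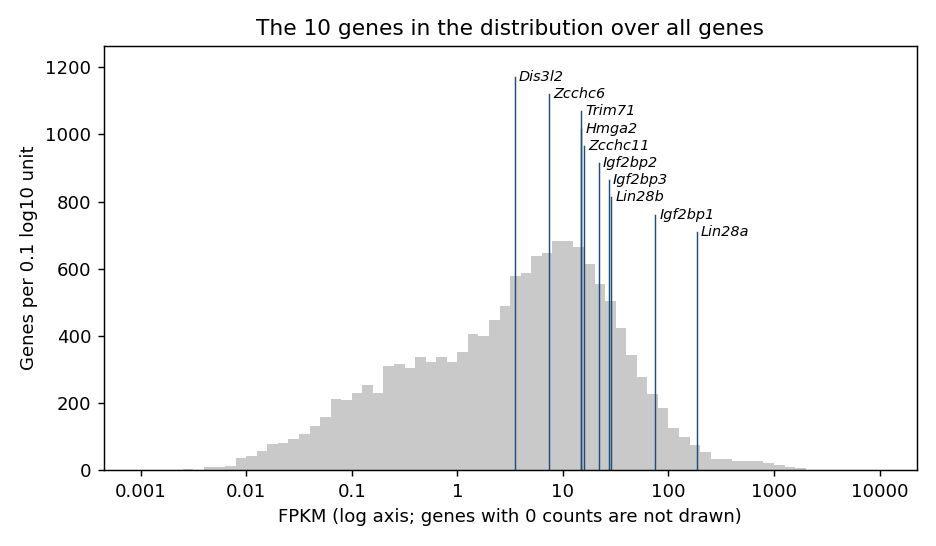
Distribution of FPKM (log axis) over the genes with counts, as genes per 0.1 log10 unit (grey bars), with a line at the value of each of the 10 genes. All 10 lines stand right of 1 FPKM, from Dis3l2 at 3.51 to Lin28a at 186.

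Of the Lin28 pair, which block let-7 maturation, Lin28a had by far the higher level in the profile. Lin28a had 185.9 FPKM (183.0 to 188.8) from 16349 counts, and Lin28b had 28.6 FPKM (27.5 to 29.6) from 3172 counts. The intervals do not overlap. Lin28a was 6.51 times Lin28b (exact 95% interval 6.27 to 6.77, counting error only), and it made up 86.7% of the summed FPKM of the pair. Lin28a was above 98.5% of gene rows and Lin28b above 87.8%. The Lin28a value lay within counting error of that of the pluripotency factor Nanog, which had 187 FPKM (183 to 191), but not on the model length, where Lin28a had 208 FPKM (204.5 to 210.9) and Nanog 183.

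Of the uridylyltransferases and the exonuclease, Zcchc11 stood in the middle of the set and Zcchc6 and Dis3l2 at its lower end. Zcchc11 had 15.8 FPKM (15.1 to 16.4) from 2380 counts. Zcchc6 had 7.38 FPKM (6.96 to 7.79) from 1278 counts. Zcchc11 was therefore 2.14 times Zcchc6 (2.00 to 2.29). Dis3l2, which degrades the uridylated precursor, had 3.51 FPKM (3.17 to 3.84) from 437 counts, and none of the 3 intervals overlaps another. Zcchc6 was 2.10 times Dis3l2 (1.89 to 2.35). The Lin28a mRNA was 11.8 times that of Zcchc11 (11.3 to 12.3) and 53.0 times that of Dis3l2 (48.2 to 58.4), or 33.6 times that of Dis3l2 (30.6 to 37.1) on the model length. These are ratios of mRNA levels in the profile, not of enzymes.

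Of the Igf2bp family, RNA-binding proteins that stabilise and localise mRNAs in embryonic tissues, Igf2bp1 led. Igf2bp1 had 74.4 FPKM (73.4 to 75.5) and the most counts of the 10 genes, 19358, on a model of 8381 nt. Igf2bp3 had 27.1 FPKM (26.1 to 28.0) from 3309 counts. Igf2bp2 had 21.8 FPKM (20.99 to 22.7) from 2738 counts. Igf2bp1 made up 60.4% of the family's summed FPKM, Igf2bp3 21.9% and Igf2bp2 17.7%. Igf2bp1 was 2.75 times Igf2bp3 (2.65 to 2.85) and 3.41 times Igf2bp2 (3.28 to 3.55).

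Hmga2 and Trim71, further let-7 targets of embryonic cells, were close to Zcchc11 on the effective length. Hmga2, an architectural chromatin protein, had 15.0 FPKM (14.2 to 15.8) from 1331 counts. Trim71 (Lin-41), a ubiquitin ligase and mRNA repressor, had 14.8 FPKM (14.4 to 15.3) from 3909 counts. The ratio of Hmga2 to Trim71 was 1.01 (0.950 to 1.08), so on this scale they were within counting error of each other.

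In order of FPKM the genes stood as Lin28a, Igf2bp1, Lin28b, Igf2bp3, Igf2bp2, Zcchc11, Hmga2, Trim71, Zcchc6 and Dis3l2. Neighbours with overlapping intervals were Lin28b and Igf2bp3, Zcchc11 and Hmga2, and Hmga2 and Trim71. Every other pair of neighbours was separate.

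FPKM in the table rests on the effective length, and its ratio to the model length had a median of 1.27 over all genes (5th to 95th percentile 0.640 to 1.94). Among the 10 genes this ratio ran from 0.909 for Lin28b to 2.24 for Trim71, and Trim71 alone was outside those percentiles. With counts divided by the model length, Trim71 had 33.3 FPKM (32.2 to 34.3) and Lin28b 25.9 (25.1 to 26.9), so that Trim71 stood above Lin28b. Igf2bp3, at 33.6 FPKM (32.5 to 34.8), and Igf2bp2, at 31.0 FPKM (29.9 to 32.2), also stood above Lin28b on the model length with separate intervals. The ratio of Lin28b to Igf2bp3 was 0.771 (0.734 to 0.810) on the model length and 1.06 (1.005 to 1.11) on the effective length, so their order turned round. On the effective length the interval of the ratio narrowly leaves out 1, although the authors' intervals of these genes overlap. Hmga2 had 14.1 FPKM on the model length and was then 0.423 times Trim71 (0.398 to 0.451). Zcchc11 was 0.522 times Trim71 (0.496 to 0.550) on the model length, against 1.06 times (1.01 to 1.12) on the effective length. Lin28a, at 208 FPKM, and Igf2bp1, at 102 FPKM, remained the highest, and Zcchc6, at 10.2 FPKM, and Dis3l2, at 6.17 FPKM, the lowest. On the model length Lin28a was 8.002 times Lin28b (7.70 to 8.32), Zcchc11 1.71 times Zcchc6 and Igf2bp3 1.08 times Igf2bp2 (1.03 to 1.14). The intervals of Igf2bp3 and Trim71 were the only neighbouring ones to overlap on that scale.

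**Figure D2:**
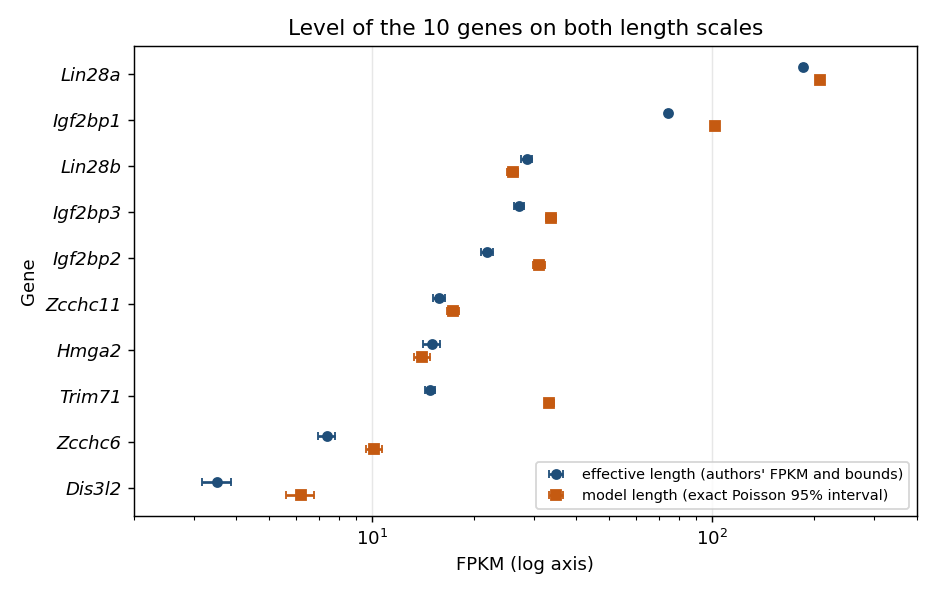
FPKM (log axis) of each of the 10 genes on the effective length (circles, with the authors' bounds) and on the model length (squares, with exact Poisson 95% intervals of the count). Trim71 moves most, with 14.8 on the effective length and 33.3 on the model length, while Lin28a is the highest on both.

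In GENCODE M21 on GRCm38 the genes lie on 8 chromosomes. Lin28a spans chr4:134003330-134018841 on the minus strand with 4 exons, and Zcchc11 spans chr4:108459426-108559421 on the plus strand with 31. Lin28b (chr10:45376620-45486395, 5 exons) and Hmga2 (chr10:120361275-120476469, 6 exons) share chromosome 10 on the minus strand. Also on the minus strand are Igf2bp1 at chr11:95957163-96005940 with 15 exons, Igf2bp2 at chr16:22059009-22163299 with 16 and Igf2bp3 at chr6:49085223-49214957 with 15. Trim71 lies at chr9:114507133-114564369 with 4 exons and Zcchc6 at chr13:59771561-59823147 with 28, both on the minus strand. Dis3l2 lies at chr1:86703808-87050095 on the plus strand with 22.

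The models behind the values differ in how much of each mRNA they hold. For 6 of the 10 genes (Lin28a, Lin28b, Igf2bp1, Igf2bp2, Igf2bp3 and Dis3l2) the model length was within 1% of an annotated GENCODE M21 transcript used for the 3′ untranslated region, and for Zcchc11 another transcript of the same length exists. The Trim71 model has 5192 nt and the annotated transcript 9332 nt, so 4140 nt of it are outside the model. Smaller differences were seen for Hmga2, with a model of 4176 nt and a transcript of 3810 nt, and for Zcchc6, with 5551 and 5869 nt. The table does not state how reads from overlapping genes or strands were treated. Exons of genes on the opposite strand cover 1529 of 4345 nt of Igf2bp3 and 1299 of 5869 nt of Zcchc6. The counts do not show which strand the reads there came from. The gene opposite Igf2bp3, 2410003K15Rik (Malsu1), had 8.29 FPKM. In the other 8 genes such overlap was at most 140 nt. Of the 50-base words of Zcchc6, 3.81% also occur in other annotated transcripts, some of them in Gm49354, which overlaps it on the same strand by 228 nt. In the other 9 genes this share was at most 0.877%.

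Most of these genes carry let-7 seed matches. That is known for several and is part of why they are called targets, so the count is a description and no independent evidence. The motif is CTACCTC, the complement of seed bases 2 to 8, searched on the mRNA strand of the longest annotated 3′ untranslated region. It was found in 7 of the 10 genes, and in 9.66% of the 17528 genes with such a region. Lin28b, Igf2bp1, Hmga2 and Trim71 had 4 matches each, Lin28a had 2, and Igf2bp2 and Igf2bp3 had 1 each. These letters were not in the windows of Zcchc11, Zcchc6 and Dis3l2, whose regions, at 636, 1346 and 350 nt, were the shortest of the 10. Only 11 genes of the 17528 had 4 or more matches, and 4 of them are genes described here. Longer regions hold more matches. Among 1753 genes with regions as long as those of Lin28b, Igf2bp1 and Trim71 (3574 nt or more), 29.3% had a match and 0.399% had at least 4. Among 1753 genes with regions as long as that of Hmga2 (2509 to 3573 nt) the shares were 15.3% and 0.114%, and 2.28% had at least 2, as Lin28a does. All these shares include the genes described here. Of the 20 matches, 13 (65.0%) were followed by an A, the 8-base form CTACCTCA, against 31.8% of the 1960 matches in all genes.

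Sites are printed as 30-base windows on the mRNA strand in GRCm38 coordinates, with the match in capitals (8 letters where the A follows). The genome build differs from the mm9 of the table, which gives no positions. Each lies in a 3′ untranslated region, and the set shows the site nearest the stop codon in each of the 7 genes, with further sites of Lin28a, Lin28b and Trim71.
Lin28a, chr4:134005188-134005217, minus strand: tggagtgcacagcctgttgaaCTACCTCAt
Lin28a, chr4:134004550-134004579, minus strand: tgctttgagatcgccacaaacCTACCTCAc
Lin28b, chr10:45381021-45381050, minus strand: cccttcacccgggcgggaagtCTACCTCAt
Lin28b, chr10:45378647-45378676, minus strand: cgtacatatacttgttagtaaCTACCTCtg
Hmga2, chr10:120364223-120364252, minus strand: gggggcgccgacattcaatttCTACCTCAg
Trim71, chr9:114512471-114512500, minus strand: aagtacaacattgcctaagtcCTACCTCAg
Trim71, chr9:114512375-114512404, minus strand: ctgtgaagtgataatttctatCTACCTCAa
Igf2bp1, chr11:95961777-95961806, minus strand: ggcagtgctgtgcgaagtaaaCTACCTCAa
Igf2bp2, chr16:22059472-22059501, minus strand: agaaaaacacacaaataaaagCTACCTCAg
Igf2bp3, chr6:49086786-49086815, minus strand: taaacgtgcatttttactcaaCTACCTCAg

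The matches were not spread alike. In Lin28b and Hmga2 the match nearest the stop codon began 36 and 58 nt past it and was the only 8-base form of the gene. In Trim71 all 4 were of the 8-base form and came as close pairs, at 166 and 262 nt and at 3591 and 3617 nt. The distal pair lies past the end of the RefSeq gene on the same build, so only the proximal pair is within that shorter annotation. In Igf2bp1 the nearest match lay 1715 nt from the stop codon.

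**Figure D3:**
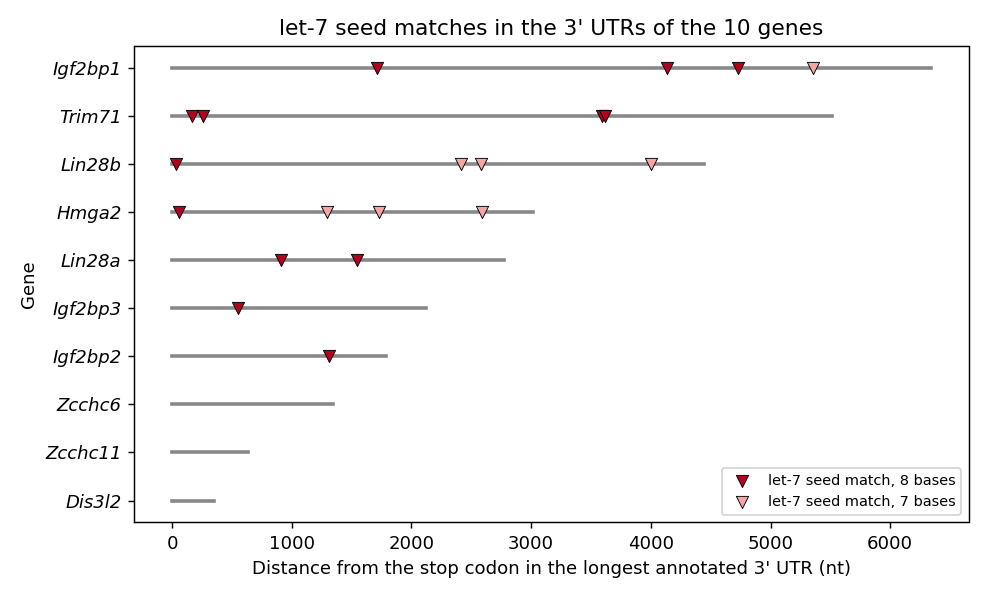
Positions of let-7 seed matches (triangles, dark for the 8-base and pale for the 7-base form) along the longest annotated 3′ untranslated region of each gene (grey line), in nt from the stop codon. Lin28b, Hmga2, Trim71 and Igf2bp1 carry 4 matches each, and Zcchc11, Zcchc6 and Dis3l2 have none.

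The core of the AU-rich element that ZFP36 proteins prefer was also counted. TATTTAT, searched on the mRNA strand of the same regions, was found in 3 of the 10 genes, once in each. It was found in 29.2% of all 17528 genes, so the share was near that of all genes of any region length. The 3 were Lin28b, Trim71 and Zcchc6. Among genes with regions as long, 68.9% had it for Lin28b and Trim71 and 30.8% for Zcchc6. The region of Lin28a, at 2775 nt, did not hold these 7 letters in a row, where 54.1% of genes with regions as long had at least 1. For the other genes without it this share was 68.9% (Igf2bp1), 54.1% (Hmga2), 41.7% (Igf2bp3), 35.1% (Igf2bp2), 17.1% (Zcchc11) and 10.9% (Dis3l2). Lin28b and Trim71 held both motifs, as did 4.03% of all genes, whatever the region length. Among genes with regions as long as theirs, 29.3% had the let-7 match and 68.9% TATTTAT. The share of those genes with both was not counted. A motif is not a binding site, and its absence from these windows says nothing of binding. The Trim71 motif, like its distal let-7 pair, lies past the end of the RefSeq gene. The windows of Trim71 and Zcchc6 are printed because the study asked about proteins that bind this class of motif.
Trim71, chr9:114509212-114509241, minus strand: gtgccaaaatgTATTTATttagaacatctc
Zcchc6, chr13:59771898-59771927, minus strand: ctatgccggttTATTTATcattttgaaata

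Other genes that let-7 is known to target were mostly present in the same profile. Hras and Fas were listed but had no row under those symbols. Of 28 listed targets with a row, 27 reached 1 FPKM, against 56.0% of all gene rows. Their median was 20.01 FPKM, against 1.94 FPKM over all gene rows. The chromatin protein Hmga1 was highest at 743 FPKM (734 to 752), well above its relative Hmga2 at 15.0. Rrm2, a subunit of ribonucleotide reductase, had 111 FPKM, and the transcription factor Mycn had 85.5. The lowest were the activin-type receptor Acvr1c at 0.209 FPKM (0.142 to 0.276, 39 counts) and the microtubule-severing Fign at 1.36. Of the 28 genes, 21 had the let-7 match in the longest region, against 9.66% of all 17528 genes, whatever the region length. Such matches are part of why genes are called let-7 targets, so this count too is a description. Nr6a1, an orphan nuclear receptor at 32.8 FPKM, had 8 matches, the most of any of the 17528 genes. Myc, Mycn and Dicer1 were among the listed genes without a match.

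Genes of let-7 processing and its other regulators were mostly present too. Xpo5, Tut1 and Mtpap were listed but had no row under those symbols. Of 20 with a row, 19 reached 1 FPKM, against 56.0% of all gene rows. Their median was 16.8 FPKM, against 1.94 FPKM over all gene rows. The highest were Hnrnpa1, an RNA-binding protein known to bind the let-7a-1 precursor, at 638 FPKM, and the RNA helicases Ddx5 at 245 and Ddx17 at 92.4. Drosha, the nuclear nuclease of microRNA processing, had 35.6 FPKM and Dicer1, the cytoplasmic one, lay between 13.6 and 14.4. The lowest were the Argonautes Eif2c4 at 0.214 FPKM (37 counts) and Eif2c3 at 2.72. Trim25, a cofactor of Lin28a-dependent uridylation, had 15.6 FPKM (15.0 to 16.1), overlapping the interval of Zcchc11, but 23.3 FPKM on the model length, where Zcchc11 had 17.4 (16.7 to 18.1). Papd4 (Gld2), another terminal nucleotidyltransferase, had 22.1 FPKM (20.7 to 23.4), above both Zcchc11 and Zcchc6.

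Markers of the labelled cell type were present. All 8 pluripotency markers had at least 40.6 FPKM. Pou5f1 was highest at 605, followed by Tdgf1 at 466 and Nanog at 187, and Dppa4 at 53.9 and Esrrb at 40.6 were lowest. Of 4 primitive endoderm markers with a row, 0 reached 1 FPKM, with Foxa2 at 0.603, Gata4 at 0.451, Pdgfra at 0.173 and Sox17 at 0.0562. Of 6 fibroblast markers, 2 did, Vim at 25.0 and Thy1 at 3.74, while Col1a1 had 0.902 and Col3a1 0.0862. On the model length 3 reached 1 FPKM, since Col1a1 then had 1.87. Postn had 0 counts, which allows up to 0.0324 FPKM (3 counts). Of 3 neural markers with a row, Pax6 reached 1 FPKM, at 2.38, while Sox1 had 0.142 and Neurog2 had 0 counts, which allows up to 0.0381 FPKM. The part of such cells in the levels of the 10 genes was not tested.

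**Figure D4:**
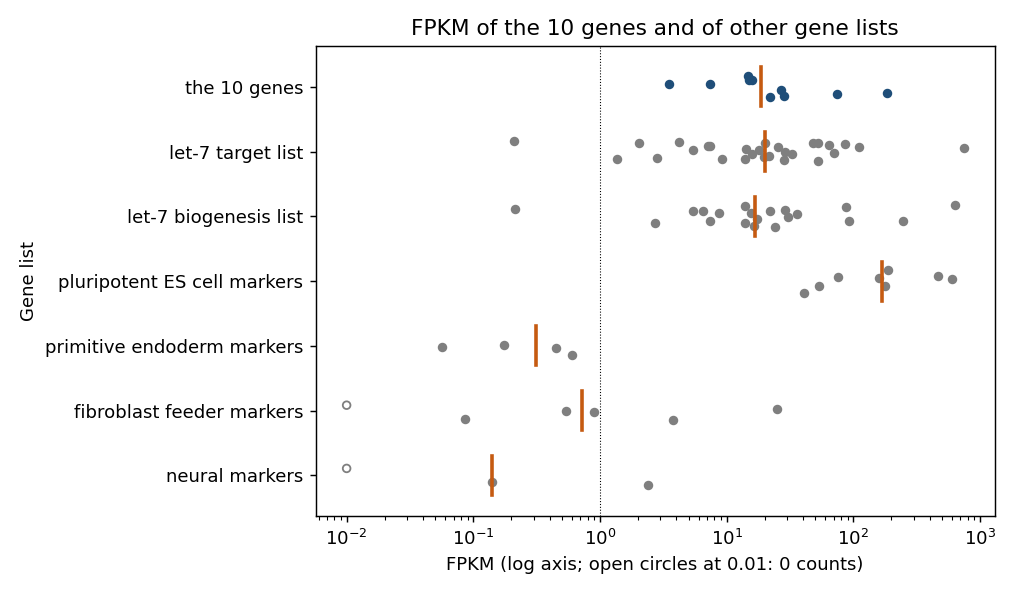
FPKM (log axis) of each gene in the 7 lists, 1 point a gene, with the list median as an orange bar and 1 FPKM as a dotted line. The 10 genes have a median of 18.8, close to the let-7 target list at 20.01 and the let-7 biogenesis list at 16.8, and the pluripotency markers lie higher.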

How the data were processed

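The submitters' processing notes name the mm9 build and, without roles, eXpress 1.1.1, Bowtie 1.1.2 and CASAVA 1.8.2. Per the labels, TruSeq RNA libraries were made from fragments near 200 nt. The authors deposited counts and estimated counts, not normalized, which are equal in every gene row, and FPKM with bounds, per the file headers. FPKM was checked to equal the count per effective length and total count. One row names no gene, holds the column total (22625281) and was left out. With no column tied to a library, 0 comparisons between groups were made and no test was run.

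FPKM was also computed from the deposited counts on the model length. Ratios carry exact (Clopper-Pearson) conditional 95% intervals, and the limit for 0 counts is 3 counts. Symbols were matched to GENCODE M21 (GRCm38), directly or through a unique RefSeq synonym, for 18148 of 18312 genes, and 17528 had a 3′ untranslated region of at least 50 nt, the longest of which was used. Regions as long means those in the same of 10 equal-sized classes of region length. Overlap and shared 50-base words were taken from the annotated transcript nearest in length to the model. The interval and motif steps were tested on simulated data. Scripts ran in Python 3.11.15 with scipy 1.17.1, pandas 2.3.3, matplotlib 3.10.9 and numpy 2.4.6.

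The members and lists were chosen with earlier results of these data known. All members were named, and of each list the 3 highest and 2 lowest measured genes and any at 0 counts. Further genes were picked with their values in view. Protein features were planned and not computed. Some items of the lists and sites are not reported here. Alternatives were a threshold of 5 FPKM, at least 10 counts, the model length, other motif forms and other annotated regions.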

Additional observations from a re-analysis of the deposited data

How the results depend on the processing

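No paired analysis was possible because no column of the table carries a replicate number or a group, and for the same reason no library could be left out. The count of genes at 1 FPKM or more was 10 of 10, and 9 at a threshold of 5 FPKM, where Dis3l2 fell short and 38.3% of all gene rows passed. With the model length or at least 10 counts, it was 10. The let-7 target list gave 27 of 28 and the biogenesis list 19 of 20, and at 5 FPKM 23 and 18. The let-7 match was found in 7 of the 10 genes in the longest region, the shortest region, the transcript nearest the model length (an alternative added after the data were seen) and as the 8-base form, against 9.66%, 6.04%, 8.30% and 3.30% of all genes in that order. Each gene had the same number of matches in the longest, shortest and nearest-length regions. For all but Zcchc11 the transcript nearest the model length was also the one with the longest region, so that alternative could change little. The 6-base form was in 8, against 24.8%. The AU-rich count depended on the motif. TATTTAT was in 3 genes, ATTTA in 9 and TTATTTATT in 0, against 29.2%, 67.5% and 8.06% of all genes, and the shorter motif is contained in the longer ones. On the model length, 8 of the 10 levels were higher and 2 (Lin28b and Hmga2) lower, each beyond the authors' interval. With 1 profile, the spread between samples is unknown, and intervals cover counting error only.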
